A study of Mus musculus with 8 samples.

Results

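The IL-6 family genes described here are 9: the cytokines Il6, Il11 and Lif, the receptor chains Lifr, Osmr, Il6st and Il6ra, the transcription factor Stat3 and its feedback inhibitor Socs3. They were taken by gene symbol from the array's annotation, all 9 were found among the 19938 measured genes, and each is represented by 1 probe set. The probe sets were chosen by their mean signal over the 8 arrays, the highest among those listed for that symbol alone. That mean is the measured value used to choose the probe sets, so the height of each signal is a description. The 9 genes were themselves chosen with earlier results of these data known, so their share of called genes is a description too.

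The arrays were Affymetrix mouse gene arrays of total RNA from Daxx knockout embryonic fibroblasts of FVB/N mice. Daxx is a chaperone of histone H3.3 and a transcriptional regulator. All 8 samples carried the knockout: 4 had received a vector (called vector), and 4 had received Daxx, of which 2 are named DaxxA and 2 DaxxB. The labels give neither an age, nor what A and B stand for, nor the promoter that drives the Daxx put back, nor whether samples came from separate cultures or clones. The p-values therefore reflect only how far these samples spread, and that spread may be technical. The comparison asked which genes lie downstream of Daxx.

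Most cytokines of the IL-6 family share the signal-transducing receptor gp130, encoded by Il6st. IL-6 and IL-11 bind their own alpha chains before they engage gp130. LIF signals through a pair of gp130 and the LIF receptor, and oncostatin M through gp130 with the oncostatin M receptor. The receptors activate JAK kinases, which phosphorylate STAT3, and STAT3 induces SOCS3, which binds gp130 and damps the signal. Fibroblasts are known both as producers of IL-6 and LIF and as cells that respond to oncostatin M.

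Values below are log2 signals, and a difference is Daxx minus vector with its standard error (SE). A gene was called when its adjusted p in limma, taken over all 19938 genes, was below 0.05. Of the 9 genes, 3 were called and all 3 were lower in the Daxx arrays: Lifr fell 1.73-fold and Osmr 1.52-fold. Il6 was lower as well, but its signal lay near background and its fold is uncertain. Of all genes 4.52% were called, 2.73% lower and 1.80% higher. The median difference of the 9 genes was -0.22 and that of all genes -0.03. Il6st, Stat3 and Socs3 had values below 0 and Lif, Il11 and Il6ra above 0, without passing the test.

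One array stood apart from the rest. The interquartile range of vector replicate 2 was 2.79, against 3.31 to 3.39 in the other 7 arrays. Its median over 1027 olfactory receptor genes, which serve as a guide to background because fibroblasts are not known to use them, was 5.21, against 4.65 to 4.70. Each array was left out in turn, and this one is singled out because of its values. Without it 6 of the 9 genes were called, where 12.8% of all genes were: Il6st and Stat3 joined the genes that were lower, and Lif was higher. The Daxx probe set itself read 7.15 ± 0.216 (SD, n = 4) in vector and 7.35 ± 0.0964 (SD, n = 4) in Daxx arrays (exact two-sided permutation p = 0.143; the smallest possible is 0.0286). Its values overlapped between the conditions, so directions rest on the labels.

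**Figure D1:**
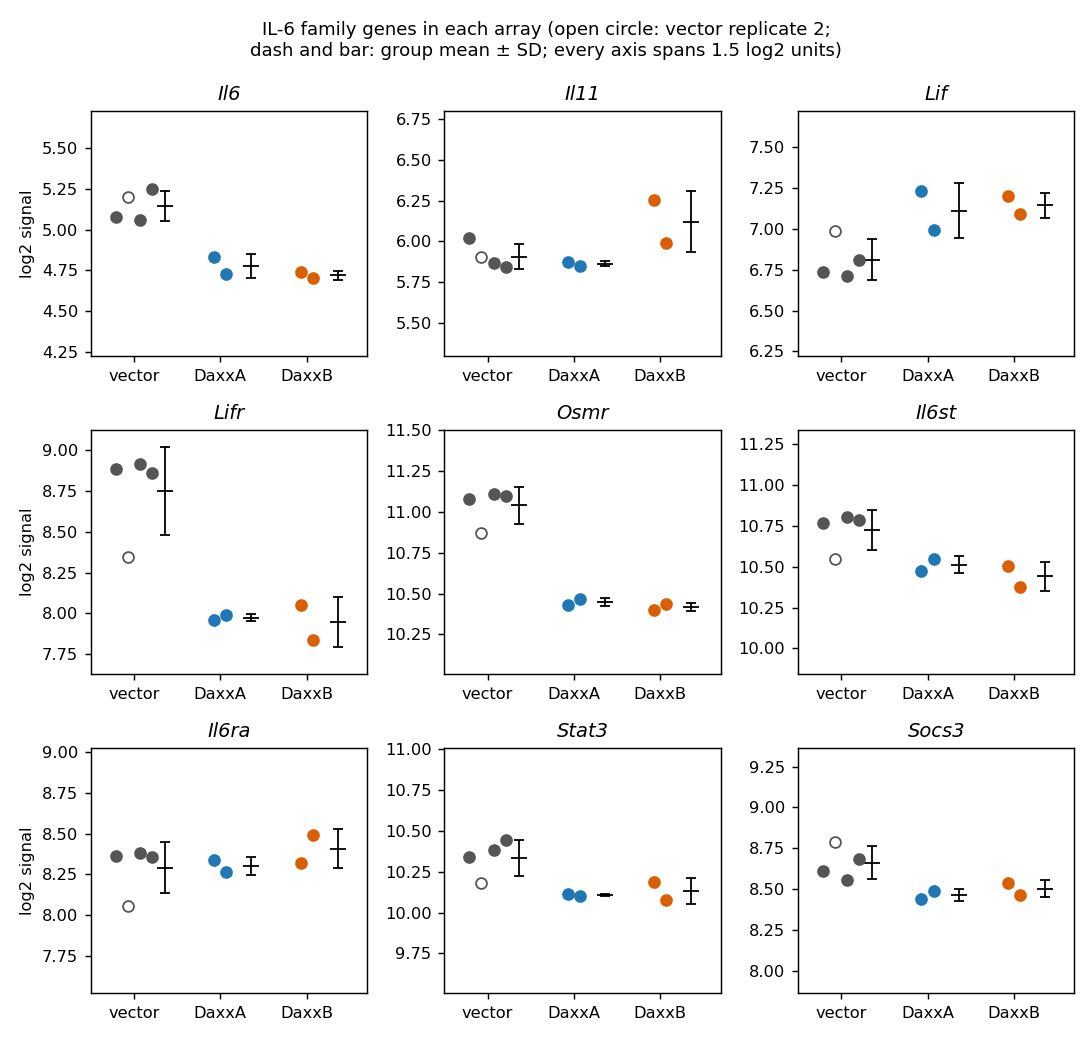
Log2 signal (vertical axis) of the 9 genes in every vector, DaxxA and DaxxB array, 1 point per array, with the group mean and SD beside the points; the open circle is vector replicate 2. The 4 Daxx points of Osmr and Lifr lie below all 4 vector points, and vector replicate 2 is the lowest vector point of Lifr, Osmr, Il6st, Il6ra and Stat3.

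The receptor chains Lifr and Osmr had the largest differences of the 9 genes. Osmr encodes the chain that binds oncostatin M together with gp130. Its signal was 11.08, 10.87, 11.11 and 11.10 in vector replicates 1 to 4, 10.43 and 10.46 in DaxxA and 10.40 and 10.43 in DaxxB. The groups did not overlap, and the lowest vector value was that of replicate 2. The difference was -0.61 (SE 0.065, 95% interval -0.75 to -0.46, adjusted p = 0.00104, n = 4 and 4). Without vector replicate 2 Osmr fell by 0.66 on the log2 scale (adjusted p = 2.35e-06), and the vector arrays then spanned only 11.08 to 11.11. Osmr kept its call with each of the 8 arrays left out in turn.

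Lifr encodes the LIF receptor, the partner of gp130 for LIF and other cytokines of the family. It read 8.88, 8.35, 8.91 and 8.86 in the vector arrays, 7.96 and 7.99 in DaxxA and 8.05 and 7.84 in DaxxB. All 4 Daxx values lay below every vector value, and vector replicate 2 stood about midway between the other vector arrays and the Daxx arrays. Lifr fell by 0.79 on the log2 scale (SE 0.126, 95% interval -1.08 to -0.51, adjusted p = 0.00895), the furthest of the 9 genes. On the 7 other arrays it fell by 0.93 (1.90-fold, adjusted p = 1.8e-06), and it too kept its call without any single array.

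Lifr and Osmr lie close together on the same chromosome in the RefSeq table of assembly GRCm38.p6. The table lists 3 genes between them, all long noncoding RNAs, and none of these was measured here. This neighbourhood was looked up after the values were seen. Their promoters are shown because these 2 genes fell furthest. The 250 bases before the RefSeq start are given 5′ to 3′ on the gene's strand in assembly GRCm38.p6 (chr15:6874314-6874563, minus strand for Osmr, and chr15:7129322-7129571, plus strand for the first of 2 listed Lifr starts). A set of 6 short motifs was searched on both strands, and capitals would mark a match: NF-kB (GGGANTTTC), STAT (TTCNNNGAA), AP-1 (TGANTCA), C/EBP (TTGCNNAA), the cyclic AMP element (TGACGTCA) and the TATA box (TATAAA). None of these motifs occurs in either window, as in the windows of Il6st, Il6ra and Stat3. GC content was 66.0% for Osmr and 82.4% for Lifr.

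Osmr: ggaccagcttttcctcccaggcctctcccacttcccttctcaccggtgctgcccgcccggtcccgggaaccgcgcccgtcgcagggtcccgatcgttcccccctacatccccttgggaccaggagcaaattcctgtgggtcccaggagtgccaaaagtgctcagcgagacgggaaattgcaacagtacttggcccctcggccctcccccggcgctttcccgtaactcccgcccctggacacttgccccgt

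Lifr: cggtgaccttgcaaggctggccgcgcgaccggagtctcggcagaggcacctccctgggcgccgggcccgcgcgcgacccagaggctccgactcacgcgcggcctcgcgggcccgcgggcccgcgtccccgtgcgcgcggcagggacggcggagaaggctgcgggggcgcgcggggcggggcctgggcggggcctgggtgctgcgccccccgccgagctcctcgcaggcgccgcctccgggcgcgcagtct

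Il6st encodes gp130, the chain shared by most of the family. Its vector arrays read 10.77, 10.55, 10.80 and 10.79. The DaxxA arrays read 10.48 and 10.55, and the DaxxB arrays 10.50 and 10.38. Vector replicate 2 overlapped the Daxx arrays and the other 3 vector arrays did not. The difference of -0.25 (SE 0.073, adjusted p = 0.109) did not pass the test on 8 arrays. It did with the arrays quantile-normalized again (adjusted p = 0.0244), an intensity trend with robust variance estimates (0.0447) or array weights (0.000347). Under 14 of the 18 alternatives Il6st stayed uncalled (adjusted p up to 0.349). Without vector replicate 2 Il6st fell by 0.31 (1.24-fold, adjusted p = 0.0021).

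Il6ra encodes the alpha chain that binds IL-6. It read 8.36, 8.05, 8.38 and 8.36 in vector arrays, 8.34 and 8.26 in DaxxA and 8.32 and 8.49 in DaxxB. Apart from vector replicate 2, the lowest of all 8, the groups overlapped. The difference was 0.06 (95% interval -0.14 to 0.26, adjusted p = 0.757), and without vector replicate 2 it was -0.01 with an interval from -0.14 to 0.11. Of the receptor chains, Il6ra thus had the smallest difference in size, with no settled sign.

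Among the cytokines, Il6 was the one called. Il6 encodes interleukin-6, the inflammatory cytokine that gives the family its name. It read 5.07, 5.20, 5.06 and 5.25 in the vector arrays, 4.83 and 4.73 in DaxxA and 4.74 and 4.70 in DaxxB. The groups did not overlap in log2 signal. Il6 fell by 0.40 on the log2 scale (1.32-fold, SE 0.062, 95% interval -0.54 to -0.25, adjusted p = 0.00852), and by 0.38 without vector replicate 2 (adjusted p = 0.00155).

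The Il6 signal was low. Its mean over the 8 arrays, 4.95, lay above 65.6% of the olfactory receptor genes and under their 95th percentile of 6.07. In vector replicates 1, 3 and 4 it stood 0.42, 0.40 and 0.57 above the olfactory receptor median of the same array, and in vector replicate 2 its distance from that median was -0.02. In the 4 Daxx arrays it stood 0.18, 0.05, 0.04 and 0.00 above that median. The Daxx arrays therefore gave Il6 a signal close to this background, near which the deposited values compress differences. By distance from the olfactory receptor median, vector replicate 2 lay below all 4 Daxx arrays, so the groups overlapped on that measure. With the arrays quantile-normalized once more Il6 was not called (adjusted p = 0.0873), although it kept its call without any single array.

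The Il6 promoter is shown because it alone of the 9 genes held a match to the NF-kB motif, which occurs in 0.941% of the 32851 promoter windows searched. The match lies 44 to 36 bases before the RefSeq start. An AP-1 match lies 249 to 243 bases before it (6.75% of windows) and a C/EBP match 128 to 121 bases before it (9.56% of windows). AP-1 matches also lie 228 to 222 bases before the Lif start and 98 to 92 bases before the second listed Il11 start. NF-kB, AP-1 and C/EBP factors are textbook activators of Il6. Below, capitals mark these 3 matches in the Il6 window (chr5:30012864-30013113, plus strand, GRCm38.p6).

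Il6: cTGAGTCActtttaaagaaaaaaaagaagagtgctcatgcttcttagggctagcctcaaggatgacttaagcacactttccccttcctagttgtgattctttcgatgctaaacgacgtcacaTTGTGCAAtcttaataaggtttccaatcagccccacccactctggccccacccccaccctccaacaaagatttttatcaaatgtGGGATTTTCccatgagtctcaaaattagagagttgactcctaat

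Lif encodes leukaemia inhibitory factor, a ligand of the Lifr and gp130 pair. Its vector values were 6.73, 6.99, 6.71 and 6.81. It read 7.23 and 6.99 in DaxxA and 7.20 and 7.09 in DaxxB. All 4 Daxx values lay above the vector values, but DaxxA replicate 2 only narrowly exceeded vector replicate 2. Its difference of 0.32 (SE 0.082, 1.25-fold higher, adjusted p = 0.0689) missed the threshold on 8 arrays. On the same 8 arrays it passed with the arrays centred on the median (adjusted p = 0.0408), quantile-normalized again (0.0283), without dim genes (0.0333) or with array weights (0.000257). Under 13 of the 18 alternatives Lif stayed uncalled (adjusted p up to 0.285). Lif rose by 0.38 without vector replicate 2 (1.30-fold, adjusted p = 0.00264). In that comparison the ligand was higher while its receptor chain Lifr was lower.

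Il11, the cytokine interleukin-11, lay under the 95th percentile of the olfactory receptor genes with a mean of 5.95. Its vector arrays read 6.02, 5.90, 5.86 and 5.84, DaxxA 5.88 and 5.85, and DaxxB 6.25 and 5.99. The groups overlapped, and DaxxB replicate 1 held the highest value. The difference was 0.09 (95% interval -0.13 to 0.30, adjusted p = 0.708).

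Stat3 and Socs3 lie downstream of the receptors. Stat3, the transcription factor that gp130 activates, read 10.34, 10.18, 10.38 and 10.44 in vector arrays, 10.11 and 10.10 in DaxxA and 10.19 and 10.07 in DaxxB. Vector replicate 2 lay just under the highest Daxx value, and the other vector arrays lay above all 4. The difference was -0.22 (SE 0.066, adjusted p = 0.123), which passed with the arrays quantile-normalized again (0.0183) or with array weights (0.000966). Under 15 of the 18 alternatives Stat3 stayed uncalled (adjusted p up to 0.397). Stat3 fell by 0.27 without vector replicate 2 (1.21-fold, adjusted p = 0.00348).

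Socs3, the inhibitor that STAT3 induces, read 8.61, 8.79, 8.56 and 8.68 in vector arrays, 8.44 and 8.49 in DaxxA and 8.54 and 8.46 in DaxxB. Here vector replicate 2 was the highest array. The groups did not overlap, although vector replicate 3 and DaxxB replicate 1 came close. The difference of -0.18 (SE 0.063, adjusted p = 0.192) did not pass, nor did -0.13 without vector replicate 2 (adjusted p = 0.0983). A second Socs3 probe set, not used above, read 6.52 ± 0.263 (SD, n = 4) in vector and 6.44 ± 0.105 (SD, n = 4) in Daxx arrays. In all, 5 of the 9 genes had groups that did not overlap, where 14.8% of all genes did.

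Socs3 is shown as the textbook STAT3 target. Of the 9 genes it alone held the STAT motif, marked in capitals 154 to 146 bases before its RefSeq start (chr11:117969367-117969616, minus strand, GRCm38.p6), and 7.02% of the windows searched hold one.

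Socs3: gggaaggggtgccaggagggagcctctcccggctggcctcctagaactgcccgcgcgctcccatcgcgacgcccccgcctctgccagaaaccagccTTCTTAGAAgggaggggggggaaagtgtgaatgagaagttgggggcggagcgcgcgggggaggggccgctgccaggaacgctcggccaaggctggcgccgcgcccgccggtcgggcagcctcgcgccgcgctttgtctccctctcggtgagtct

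**Figure D2:**
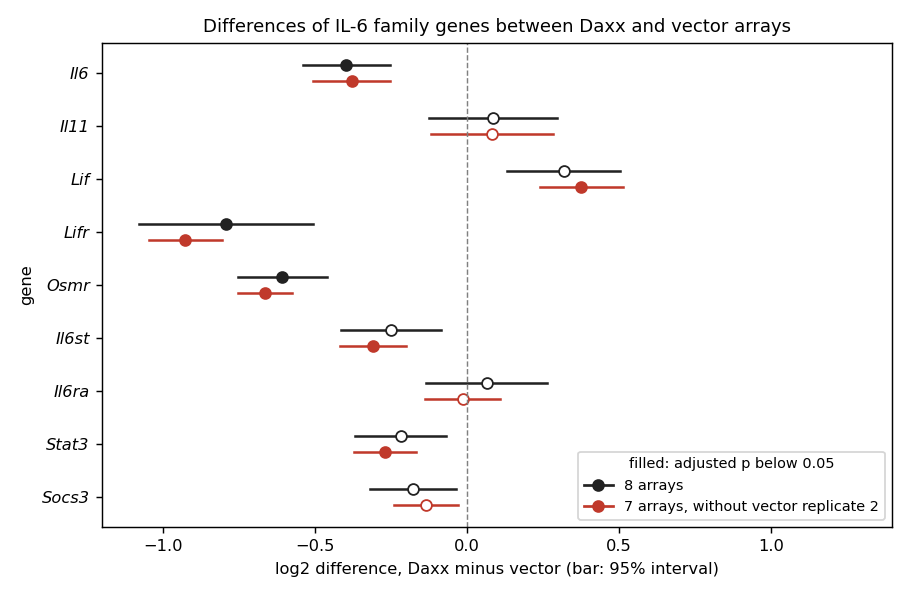
Log2 difference, Daxx minus vector (horizontal axis), with its 95% interval for each gene on 8 arrays and on the 7 arrays without vector replicate 2; filled points have an adjusted p below 0.05. Osmr, Lifr and Il6 are filled in both, Lif, Il6st and Stat3 on 7 arrays only, and Il11, Il6ra and Socs3 in neither.

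DaxxA and DaxxB were then set against the same 4 vector arrays, which the 2 comparisons share. Osmr fell by 0.59 in DaxxA (adjusted p = 0.0151) and by 0.62 in DaxxB (adjusted p = 0.00995). Lifr had differences of -0.78 (adjusted p = 0.077) and -0.81 (adjusted p = 0.054), which did not pass. Il6 had -0.37 in DaxxA (adjusted p = 0.0737) and fell by 0.43 in DaxxB (adjusted p = 0.0345). Thus 1 of the 9 genes was called in DaxxA, where 1.97% of all genes were, and 2 in DaxxB, where 2.69% were. Leaving out any 1 array other than vector replicate 2 gave 0 in DaxxA. In DaxxB it gave 0 without either DaxxB replicate and 1 without any of the other 5. Without vector replicate 2 both counts were 6, where 11.3% and 20.5% of all genes were called.

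The remaining genes were not called in either Daxx group. Lif had differences of 0.30 and 0.33 in DaxxA and DaxxB, Il6st -0.21 and -0.29, Stat3 -0.23 and -0.21, and Socs3 -0.20 and -0.16. Il6ra had 0.01 and 0.12. Il11 alone of the 9 differed in sign, with -0.04 in DaxxA and 0.21 in DaxxB.

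The difference between DaxxA and DaxxB was tested directly. No member was called in limma on 8 arrays, nor was any of the 19938 genes, so 0% was called; at an unadjusted p below 0.05 there were 1 member and 846 genes. That member was Il11, at -0.26 for DaxxA minus DaxxB (95% interval -0.50 to -0.02, adjusted p = 1). The intervals for Osmr (-0.19 to 0.25) and Lifr (-0.42 to 0.48) rest on 2 arrays per Daxx group and a spread shared with the vector arrays. Without vector replicate 2 the Lifr interval ran from -0.12 to 0.18. Without vector replicate 2, 428 genes were called (2.15%) and still 0 members.

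**Figure D3:**
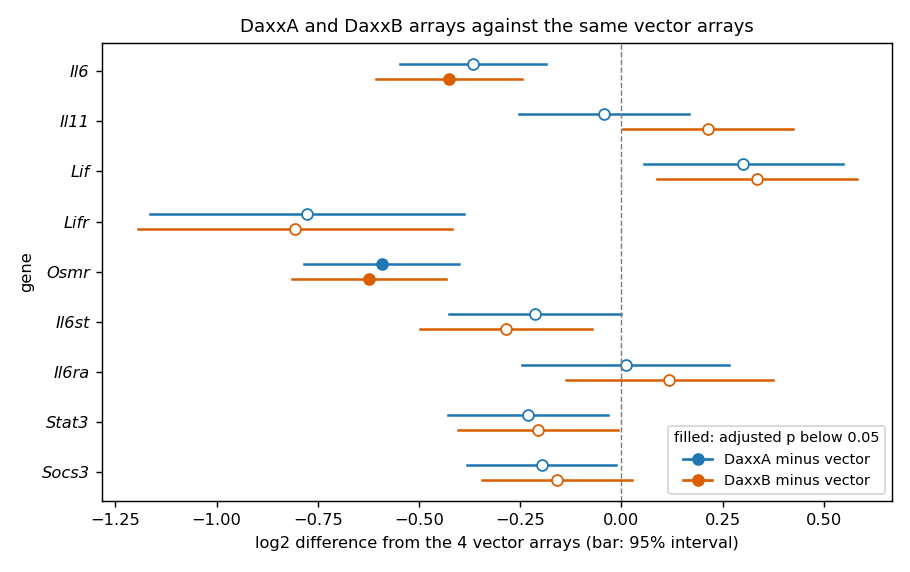
Log2 difference from the 4 vector arrays (horizontal axis) with its 95% interval for DaxxA and for DaxxB, 2 arrays each, per gene; filled points have an adjusted p below 0.05. The 2 points of a gene lie on the same side of 0 for every gene but Il11, and Osmr is filled in both.

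Other genes of the pathway were counted from 6 lists with 85 distinct measured genes. Of these 10 were called (11.8%, against 4.52% of all genes), 5 lower and 5 higher, and the median difference of the 85 was -0.01. The lists were chosen with earlier results of these data known, so these shares are a description. The count fell to between 4 and 7 with other single arrays left out and rose to 20 without vector replicate 2, where the share of all genes called rose to 12.8%. Of the 10, 4 kept their call without any single array: Saa3, Cebpd, Timp1 and Fosl1.

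No other ligand was called, of 7 measured (median -0.03). Clcf1, a ligand of the ciliary neurotrophic factor receptor and the brightest of this list, differed by 0.18 (adjusted p = 0.689). The oncostatin M gene Osm, named outside the rule for naming genes because its receptor was called, averaged 5.02, under the olfactory receptor percentile, and differed by -0.11 (adjusted p = 0.719). None of 3 other receptor chains was called either (median -0.12). Cntfr, the alpha chain for ciliary neurotrophic factor, had a value of 0.45 with groups that did not overlap (adjusted p = 0.15). Without vector replicate 2 Cntfr rose by 0.30 (adjusted p = 0.014).

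Among 10 kinases, adaptors and other STAT factors, 1 fell and 9 did not pass (median -0.09). Stat5a, a STAT factor of cytokine and hormone signalling, fell 1.25-fold (SE 0.058, adjusted p = 0.0155). It lost its call without vector replicate 1 or 3, either DaxxA replicate or DaxxB replicate 2, with an adjusted p of up to 0.0615. Ptpn11, the phosphatase SHP2 that docks on gp130, had -0.08 (adjusted p = 0.45). Without vector replicate 2 the list of 10 held 2 called genes, both lower. None of 15 inhibitors, phosphatases and receptor sheddases was called on 8 arrays (median -0.03). Without vector replicate 2, where 12.8% of all genes were called, this list held 1 called gene that was higher and 2 that were lower. The brightest of them, Pias1, a ligase that restrains STAT factors, had -0.14 (adjusted p = 0.374).

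Genes known to be induced through STAT3 went both ways: of 30 measured, 3 fell, 3 rose and 24 did not pass (median 0.04). Saa3, an acute phase protein, fell 3.18-fold (adjusted p = 0.000197). Cebpd, a transcription factor induced in the acute phase, fell 1.69-fold (adjusted p = 0.000466). Timp1, an inhibitor of matrix proteases, rose 1.45-fold (adjusted p = 0.00426). These 3 kept their call under all 18 alternatives. Vegfa, an angiogenic factor, rose 1.22-fold and Ccnd1, cyclin D1, rose 1.18-fold. The remaining one was Hif1a, a hypoxia factor outside the rule for naming genes, which fell 1.18-fold. With 1 array left out, Vegfa kept its call only without vector replicate 2 or DaxxA replicate 2, and Ccnd1 and Hif1a only without vector replicate 2 (adjusted p otherwise up to 0.0833, 0.0964 and 0.147). The chemokine Ccl2, the brightest of the list, had -0.13 (adjusted p = 0.224). Without vector replicate 2 the list held 5 called genes that were lower and 4 that were higher.

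Another list held known regulators of Il6 expression, mostly inducers but also Nfkbia, Zc3h12a and Zfp36, which restrain it and are named outside the rule. Of 20 measured, 2 rose, 1 fell and 17 did not pass (median 0.03). Both that rose encode AP-1 subunits: Jun rose 1.30-fold (adjusted p = 0.0175) and Fosl1 1.28-fold (adjusted p = 0.0086). Tlr3, a receptor for double-stranded RNA, fell 1.25-fold (adjusted p = 0.0164). Rela, an NF-kB subunit and the brightest of the list, had 0.15 (adjusted p = 0.524). Jun lost its call without vector replicate 3, DaxxA replicate 1 or either DaxxB replicate (adjusted p up to 0.0688). Tlr3 lost it without vector replicate 1 or 3, DaxxA replicate 1 or either DaxxB replicate (up to 0.0678). Without vector replicate 2 the list held 3 called genes that were higher and 2 that were lower.

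**Figure D4:**
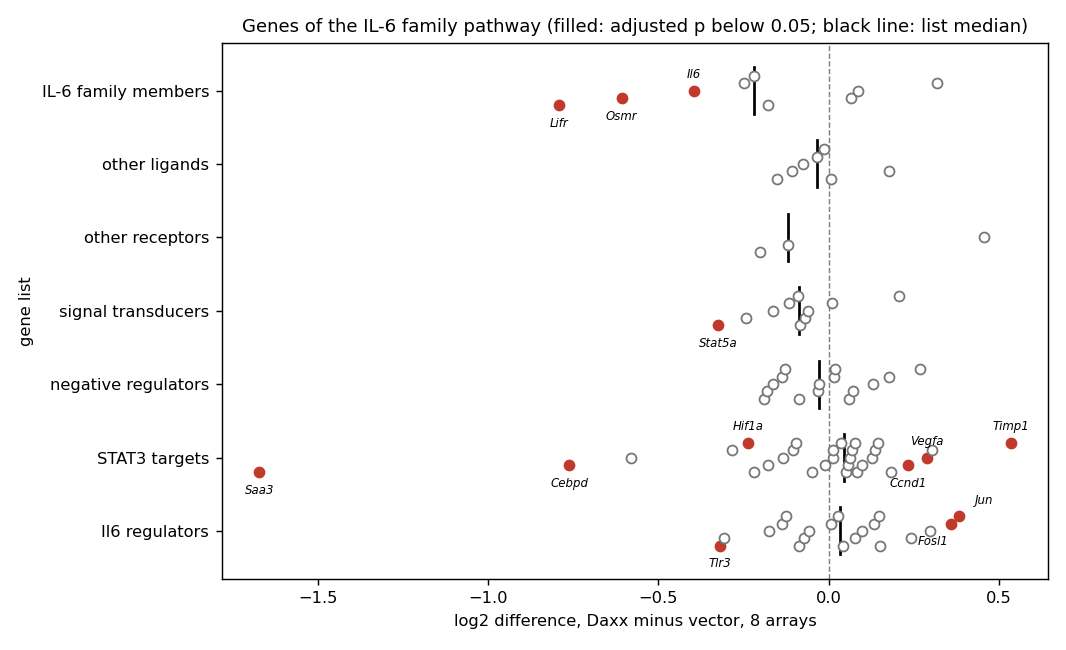
Log2 difference, Daxx minus vector on 8 arrays (horizontal axis), of each gene in 7 lists (vertical axis), with called genes filled and named and a black line at each list's median. Lifr, Osmr and Il6 are the filled points among the 9 members, and Saa3, at -1.67, lies furthest from 0.

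The genes whose signal ran most nearly parallel to a called member over the 8 arrays were found by Pearson correlation, given as a description. The 2 conditions make up most of each pattern. For Osmr they were Adamts1 (r = 0.997), Adamts5 (r = 0.996) and Thbs2 (r = 0.996), which encode 2 aggrecanases and a thrombospondin of the matrix. For Lifr they were Farp1 (r = 0.995), Fgf10 (r = 0.995) and Ddah1 (r = 0.993), of which Fgf10, a mesenchymal growth factor, fell 2.67-fold. For Il6 they were Pik3r1 (r = 0.995), Tsc22d2 (r = 0.988) and Lmo7 (r = 0.985), and Pik3r1 encodes a regulatory subunit of phosphoinositide 3-kinase. With any 1 array left out, r stayed at 0.981 or higher for all 9.

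The cell type was checked against marker genes. Of 14 fibroblast markers, 13 lay above the olfactory receptor percentile, as did 2 of 12 macrophage, 2 of 9 lymphocyte, 3 of 8 endothelial, 3 of 8 epithelial, 5 of 6 skeletal muscle and 2 of 5 adipocyte markers. The muscle markers averaged 6.32 to 6.86 in vector and 6.38 to 6.49 in Daxx arrays, and 0 of 6 were called. None of the adipocyte markers was called either. The leukocyte antigen Ptprc averaged 5.46 and the macrophage antigen Adgre1 5.02, both below the percentile. Fibroblast markers moved with the conditions: 5 fell and 1 rose, and their mean ran from 9.74 to 9.76 in vector and from 9.37 to 9.49 in Daxx arrays. Macrophage markers averaged 5.55 to 5.91 in vector and 5.54 to 5.65 in Daxx arrays, with 0 of 12 called. The highest values of both the macrophage and the muscle markers were those of vector replicate 2, and the other 3 vector arrays spanned 5.55 to 5.59 and 6.32 to 6.42. The part of the fibroblast marker shift in the fall of Osmr, Lifr and Il6 was not tested. In bulk RNA, fewer cells of a type and less RNA per cell cannot be told apart.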

How the data were processed

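Total RNA of 8 samples was amplified, labelled with biotin and read on Affymetrix mouse arrays, per the labels' protocols. The authors deposited log2 signals, computed by RMA in Affymetrix Expression Console, per the submitters' processing notes. RMA corrects background, quantile-normalizes the arrays and summarises probes into probe sets; it compresses differences near background. For versions and genome build, the sources used here name none. Of 35556 probe sets, 21789 had 1 gene symbol in the platform annotation, 1621 several and 12146 none listed. The probe set of highest mean stood for each of 19938 genes. limma 3.58.1 in R 4.3.3 (lmFit, eBayes, Benjamini-Hochberg over all genes) compared 4 Daxx with 4 vector arrays, and, with 3 groups sharing 1 spread, DaxxA, DaxxB and their difference. The code of the fits was run on simulated data with independent noise and no array that stood apart. That run therefore says nothing about how such an array affects the calls. The number of arrays limits the precision.

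The 9 genes and the pathway lists were chosen with earlier results of these data known. Named genes were the 9, Daxx, up to 5 called genes by adjusted p and the brightest gene of each list, and the 3 genes most correlated with each called member, without olfactory receptors, small RNAs, predicted genes or antigen receptor segments. List entries without a matched symbol (9 pathway genes) were not analysed here. The alternatives, 18 in all, changed array scaling, the probe set of a gene, the filter on dim genes, the variance model, array weights, the groups fitted and the replicate block, or left out 1 array. Promoters are RefSeq windows of GRCm38.p6, and all 9 genes were matched by symbol.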

Additional observations from a re-analysis of the deposited data

Results flagged for a closer look

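Vector replicate 2 stood far from the other 3 vector arrays in 4 of the 9 genes. In all, 18 sets of 4 arrays were examined (9 genes in 2 conditions). Chance gives about 1 in 20 for a single set, but these sets share the same arrays, so the count is a description. Vector replicate 2 was the lowest vector array in each of the 4. For Lifr it read 8.35, against 8.86 to 8.91 in the others. For Osmr it read 10.87, against 11.08 to 11.11. For Il6st it read 10.55, against 10.77 to 10.80. For Il6ra it read 8.05, against 8.36 to 8.38. No Daxx array stood apart by the same measure in any of the 9 genes.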

How the results depend on the processing

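Osmr and Lifr kept their direction and their call for Daxx minus vector under 17 of 18 alternatives, and Il6, which 17 alternatives could test, under 15. The exception for all 3 was the replicate block, in which the replicate number entered the fit: 0 of the 9 genes were called for Daxx minus vector (adjusted p = 0.0652, 0.0919 and 0.129), 0 for DaxxA and DaxxB, 3 of the other pathway genes, and 162 of all genes. It leaves vector replicates 3 and 4 out in effect. The labels do not say what same-numbered samples share beyond the number. The difference of replicate 1 minus replicate 2 correlated at 0.0963 between DaxxA and DaxxB. Against vector it correlated at 0.133 for DaxxA and 0.0369 for DaxxB, and both of these involve vector replicate 2, which stood apart. Whether same-numbered samples were handled together was not tested. For Il6 the other exception was a further quantile normalization. The count of called members for Daxx minus vector was 5 with that normalization, 6 with array weights and between 3 and 6 with 1 array left out. For DaxxA it was 0 with arrays centred on the median or with only the groups compared. The DaxxA count was 2 with quantile normalization, without dim genes or with an intensity trend and robust variance estimates. It was 6 with array weights, and 0 to 6 with 1 vector array left out. For DaxxB it was 1 with centred arrays or only the groups compared, 6 with array weights, and 0 to 6 with 1 array left out. Where this left 1 array in a Daxx group, that array was assumed to vary like the others. Other pathway genes called numbered 5 with centred arrays, 23 with array weights and 4 to 20 with 1 array left out. All genes called for Daxx minus vector ranged from 162 to 3231, against 902. No scaling moved the median of all genes by over 0.1.

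Signs changed only in differences that were not called. Il6ra turned to -0.0026 with array weights and ran from -0.014 to 0.095 with 1 array left out; Il11 ran from -0.00093 to 0.133 there. For DaxxA minus vector Il6ra was -0.031 with quantile normalization, -0.068 with array weights and -0.067 to 0.049 with 1 array left out, and Il11 was 0.045 with quantile normalization. For DaxxA minus DaxxB, leaving out 1 array gave Lif from -0.154 to 0.087, Stat3 from -0.082 to 0.032 and Lifr from -0.079 to 0.138.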
